A study of Mus musculus with 32 samples.

Results

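The regions described here are the listed ChIP-seq peaks at 3 genes of the mouse embryonic stem (ES) cell network, Zfp42, Tbx3 and Prdm14. Every peak that touched a fixed window at one of these genes by at least 1 bp was taken, which gave 138 of the 387563 peaks in 26 lists. In build mm9 the windows ran on chromosome 8 from 44370000 to 44400000 for Zfp42 (49 peaks), on chromosome 5 from 120105000 to 120145000 for Tbx3 (70 peaks) and on chromosome 1 from 13095000 to 13130000 for Prdm14 (19 peaks). Within the windows, peaks were taken by position and not by their values.

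All cells were J1 mouse ES cells grown with serum and the cytokine LIF. Chromatin of wild-type cells and of Taf5l and Taf6l knockout (KO) cells was immunoprecipitated for 7 targets, namely H3K4me3, H3K9ac, total RNA polymerase II (RNAP), its serine 5 and serine 2 phosphorylated forms (RNAP-ser5 and RNAP-ser2), Oct4 and Myc. Flag-Biotin (FB) tagged TAF5L and TAF6L were pulled down with streptavidin from 2 lines each, beside a BirA control, and these 5 libraries carry a wild-type label. There was 1 library per target and genotype, so no test between genotypes was possible, and a peak absent from a list means that it did not pass the authors' cutoffs (q of 0.05, with a second cutoff of 0.1 for the broad lists of histone marks and polymerase). Unique tags per library ranged from 1702363 (RNAP-ser5 in Taf6l-KO) to 22968606 (H3K9ac in Taf5l-KO) in the knockout series and from 18292747 to 27775010 in the streptavidin series. The peak lists hold no measure of Taf5l or Taf6l expression, so the knockouts themselves were not checked here.

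Zfp42 (also called Rex1) encodes a zinc finger protein related to YY1 and is a standard marker of undifferentiated ES cells. Tbx3 encodes a T-box transcription factor that helps maintain ES cell self-renewal and later acts in limb and heart development. Prdm14 encodes a PR-domain zinc finger protein that dampens FGF signalling in ES cells and is needed for germ cell specification. Oct4 is a POU-family factor of pluripotent cells, Myc a factor of growth genes, H3K4me3 and H3K9ac mark active promoters, and TAF5L and TAF6L are subunits of the SAGA coactivator, which carries a histone H3 acetyltransferase. In the RefSeq table of build GRCm38.p6, Zfp42 lies between the coding genes Triml2 and Adam26b, Tbx3 between Med13l and Tbx5, and Prdm14 between Slco5a1 and Ncoa2. Tbx3 overlaps 1 other annotated gene, the antisense RNA gene Tbx3os1, and its peaks cannot be split between them.

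Of the 3 genes looked for, 1 had a promoter sequence in the RefSeq table, and this was Zfp42. Its promoter is shown here, and those of Tbx3 and Prdm14 could not be searched. The sequence holds the 250 bases before the RefSeq start, on the minus strand of chr8:43307010-43307259 in GRCm38.p6, a build other than that of the peaks. Capitals mark an octamer, the motif of POU factors, and a pair of GC boxes.
Zfp42 promoter: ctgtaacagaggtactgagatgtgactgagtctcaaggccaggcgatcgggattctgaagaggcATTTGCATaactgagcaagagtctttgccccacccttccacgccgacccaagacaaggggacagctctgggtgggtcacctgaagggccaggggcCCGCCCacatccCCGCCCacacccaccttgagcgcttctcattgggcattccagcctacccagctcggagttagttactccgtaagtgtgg

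The octamer, searched as ATGCAAAT on both strands, began 186 bases before the start and read ATTTGCAT on the gene's strand. The same octamer occurred in 1.60% of the 32851 RefSeq promoters of this length. The GC boxes, searched as GGGCGG, read CCGCCC at 91 and 79 bases before the start, and 32.7% of promoters held at least 1. The E-box CACGTG (6.02% of promoters) and the TATA motif TATAAA (12.4%) did not occur in these letters. No motif overlapped another. The promoter held 9 CpG pairs, against a median of 6 over all promoters. The place of this start in mm9 was not determined, so no distance from the octamer to a peak is given.

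Of the 7 targets, 6 had a peak in the wild-type window at Zfp42, 6 at Tbx3 and 4 at Prdm14. The target missing from every window in every genotype was Myc. In Taf5l-KO the numbers were 4, 4 and 4, and in Taf6l-KO 5, 5 and 2. The 3 windows held 42 wild-type peaks of the 7 targets. A Taf5l-KO peak of the same target overlapped 26 of them and a Taf6l-KO peak also 26, leaving 16 without overlap in each knockout. Among all wild-type peaks of the 7 lists, 54.2% had no Taf5l-KO overlap and 55.5% no Taf6l-KO overlap. Of the 42, 24 were overlapped in both knockouts and 14 in neither. The matching shares over all wild-type peaks were not computed, so nothing is read from these joint counts. Of the 3 wild-type Oct4 peaks, 0 were overlapped in Taf5l-KO and 1 in Taf6l-KO, and of the 2 H3K9ac peaks 0 and 1. Over the whole wild-type lists, 40.9% of Oct4 peaks had no Taf5l-KO overlap and 53.5% no Taf6l-KO overlap. For H3K9ac these shares were 97.5% and 80.8%. The strongest H3K4me3 peak of each window was overlapped in both knockouts. The wild-type H3K4me3 list was split by fold enrichment into 10 strata of equal size. In the strata of the Zfp42 and Tbx3 peaks, 0% of peaks had no overlap in either knockout. In that of the Prdm14 peak the shares were 5.19% (Taf5l-KO) and 6.98% (Taf6l-KO), so nothing is read from these overlaps.

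**Figure D1:**
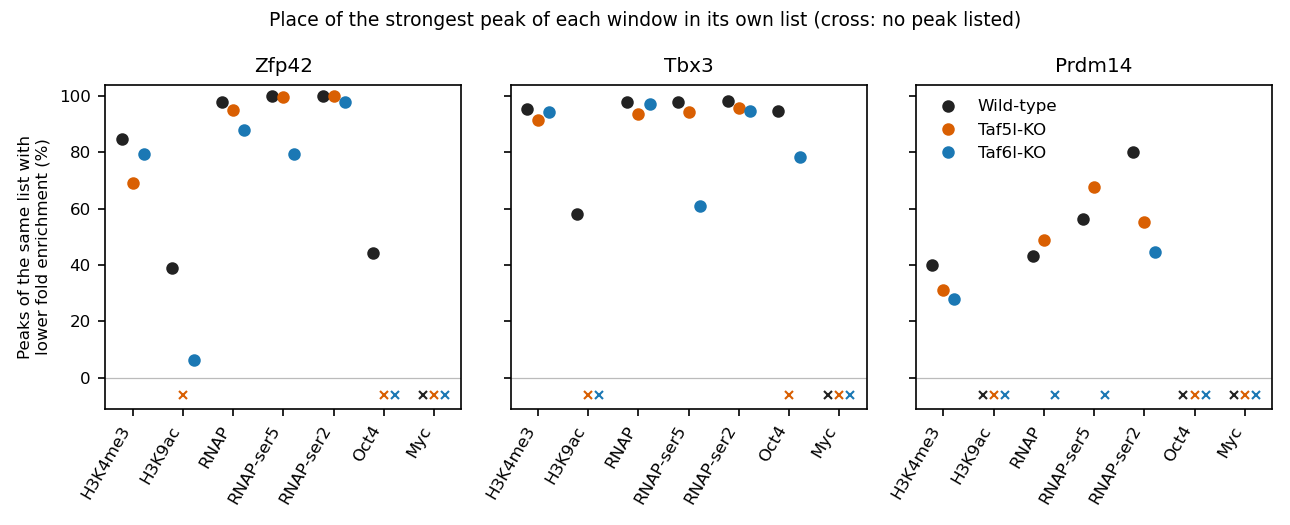
Place of the strongest peak of each window within its own list, for 7 targets and 3 genotypes. The vertical axis gives the percentage of peaks of the same list with lower fold enrichment, each dot is 1 library, and a cross marks a list with no peak in the window. At Zfp42 the wild-type RNAP-ser5 and RNAP-ser2 dots stand at 99.9% and 99.8%, while the wild-type H3K4me3 dot at Prdm14 stands at 40.0%.

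At Tbx3, the strongest H3K4me3 peak was broad and among the stronger peaks of its list in each genotype. The strongest wild-type H3K4me3 peak ran from 120118868 to 120127410, a width of 8543 bp, with a fold enrichment (the authors' ratio of pileup to local background) of 11.9. It ranked 1498 of 32370 by fold enrichment and 22 by width. In Taf5l-KO the strongest peak ran from 120119423 to 120126050 (6628 bp, fold enrichment 12.3, rank 2758 of 32098). In Taf6l-KO it ran from 120118973 to 120127516 (8544 bp, 14.3, rank 1662 of 29463) and was the eighth widest of its list, at width rank 8. The 3 peaks thus shared most of their length, and the Taf5l-KO peak covered 77.6% of the wild-type peak against 98.8% for Taf6l-KO.

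Around this peak, the wild-type list held 6 further H3K4me3 peaks in the Tbx3 window, 275 to 4625 bp wide. Of the 7 wild-type peaks, 5 were overlapped in each knockout and 2 were not. Among all wild-type H3K4me3 peaks, 15.4% had no Taf5l-KO overlap and 19.2% no Taf6l-KO overlap. The overlaps at Tbx3 differed in extent, since Taf5l-KO peaks covered 57.1% of the length of the 7 peaks and Taf6l-KO peaks 88.1%. For the peak from 120107078 the covered shares were 2.35% and 94.5%. The same 2 peaks were missing in both knockouts, at 120128755 (fold enrichment 3.81) and 120140852 (3.65). With the wild-type list split by fold enrichment into 10 strata of equal size, both fell in stratum 9 counted from the strongest, where 44.8% of all peaks had no overlap in Taf5l-KO and 56.0% had none in Taf6l-KO. Covered length in the window was 17.1 kb in wild-type, 10.4 kb in Taf5l-KO and 16.3 kb in Taf6l-KO. The H3K4me3 libraries held 15136528, 8886529 and 13041135 unique tags in the same order, and the part of depth in the shorter Taf5l-KO coverage was not tested.

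H3K9ac at Tbx3 was listed in wild-type cells and in neither knockout. The peak ran from 120120162 to 120124094 and lay wholly inside the strongest H3K4me3 peak of each genotype. Its width of 3933 bp was the fourth largest of the list, at width rank 4 of 4131. Its fold enrichment of 5.00 was higher than that of 58.2% of the list, at rank 1727. Missing H3K9ac was common: 97.5% of all wild-type H3K9ac peaks had no overlapping Taf5l-KO peak and 80.8% had no overlapping Taf6l-KO peak. For the widest stratum, with the list split by width into 10, these shares were 93.0% and 47.6%, and for the stratum of this peak by fold enrichment 99.3% and 90.3%. The nearest listed H3K9ac peak lay 938634 bp away in Taf5l-KO and 938591 bp away in Taf6l-KO. The H3K9ac libraries of the knockouts held more unique tags (22968606 and 18739413) than the wild-type library (17460064). Their inputs held 6245652 and 5923469 unique tags, against 7771755 in wild-type, and the part of the inputs in the missing peaks was not tested.

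**Figure D2:**
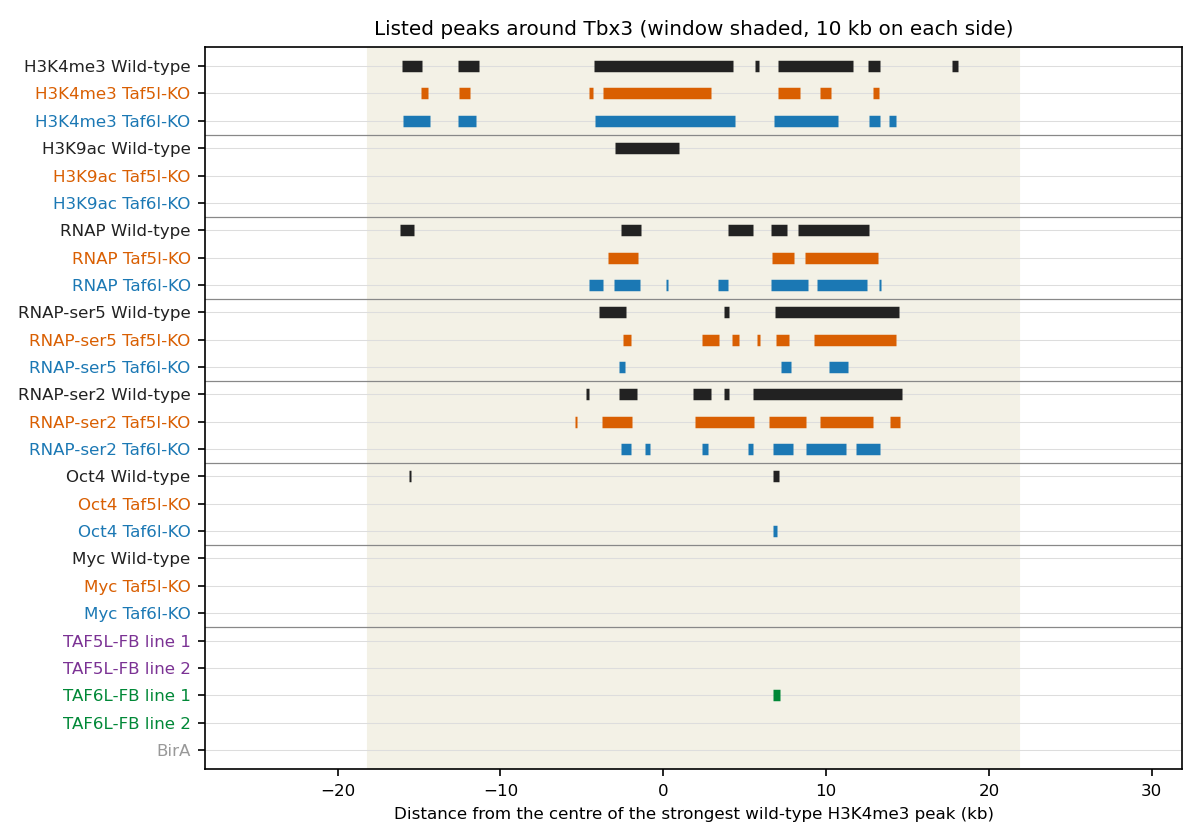
Map of listed peaks at Tbx3 in all 26 lists. The horizontal axis is the distance in kb from the centre of the strongest wild-type H3K4me3 peak, bars are peaks, rows are libraries, and the shaded span is the 40 kb window. The Oct4 peaks of wild-type and Taf6l-KO and the TAF6L-FB line 1 peak stack at about 7 kb, where RNAP peaks lie in all 3 genotypes, and H3K9ac has a bar in the wild-type row alone.

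Polymerase at Tbx3 was listed mainly in 2 places. The first lay within the H3K4me3 peak. There the strongest RNAP peak of each genotype was found, from 120120542 to 120121771 in wild-type (fold enrichment 10.2, rank 624 of 29370), from 120119736 to 120121600 in Taf5l-KO (9.07, rank 1331 of 20583) and from 120120136 to 120121694 in Taf6l-KO (11.6, rank 804 of 26734). In wild-type cells the phosphorylated forms had their weakest peaks of the window here, with a fold enrichment of 3.10 for RNAP-ser5 (rank 39027 of 45366) and 4.01 for RNAP-ser2 (rank 15591 of 43039). The second place lay on the high-coordinate side. In wild-type cells an RNAP-ser2 peak of 9113 bp ran from 120128664 to 120137776 (6.40, rank 797 of 43039) and an RNAP-ser5 peak of 7601 bp from 120129998 to 120137598 (5.29, rank 1055 of 45366).

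In both knockouts the strongest peaks of the phosphorylated forms lay at the first place instead. For RNAP-ser5 they ran from 120120674 to 120121179 in Taf5l-KO (fold enrichment 5.80, rank 1297 of 22190) and from 120120446 to 120120806 in Taf6l-KO (4.24, rank 6657 of 17000). For RNAP-ser2 they ran from 120119376 to 120121212 in Taf5l-KO (5.42, rank 1365 of 31583) and from 120120550 to 120121133 in Taf6l-KO (6.56, rank 2299 of 42451). The place of the strongest peak thus differed between the wild-type library and both knockout libraries, and this difference has no replicate check.

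For the phosphorylated forms, the second place was listed in shorter pieces in the knockouts. Peaks of total RNAP there were 970 and 4389 bp wide in wild-type and 1320 and 4503 bp in Taf5l-KO. In Taf6l-KO they were 2279, 3063 and 130 bp wide. The long RNAP-ser2 peak was overlapped by 4 Taf5l-KO peaks covering 67.8% of it and by 3 Taf6l-KO peaks covering 56.7%. For the long RNAP-ser5 peak these were 2 Taf5l-KO peaks covering 77.0% and 2 Taf6l-KO peaks covering 23.9%. Over the window, a Taf5l-KO peak overlapped 3 of 5 wild-type RNAP peaks, 2 of 3 RNAP-ser5 peaks and 4 of 5 RNAP-ser2 peaks. For Taf6l-KO the counts were 3 of 5, 2 of 3 and 3 of 5. Over the whole lists, no Taf5l-KO overlap was found for 47.5% of wild-type RNAP peaks, 73.8% of RNAP-ser5 peaks and 63.4% of RNAP-ser2 peaks. The shares with no Taf6l-KO overlap were 39.6%, 83.5% and 61.3% in that order. The RNAP-ser5 library of Taf6l-KO was the shallowest, with 1702363 unique tags against 3871824 in wild-type and 8807133 in Taf5l-KO. Duplicates made up 92.6% of the RNAP-ser5 tags in Taf6l-KO, 87.8% in wild-type and 77.5% in Taf5l-KO. The RNAP-ser2 libraries held 6295522 unique tags in wild-type, 5390622 in Taf5l-KO and 3842867 in Taf6l-KO. Their duplicates were 83.6%, 81.4% and 87.8% in the same order. The part of depth in the low RNAP-ser5 coverage and in the RNAP-ser2 coverage was not tested.

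Oct4 was listed at 2 sites of the Tbx3 window in wild-type cells. The stronger site ran from 120129883 to 120130265 (383 bp), with a fold enrichment of 16.6 at rank 137 of 2564. It lay 2472 bp beyond the end of the strongest H3K4me3 peak and 5788 bp beyond the H3K9ac peak. A Taf6l-KO Oct4 peak ran from 120129865 to 120130131 (267 bp, fold enrichment 11.1, rank 400 of 2049), and its summit lay 7 bp from the wild-type summit. The Taf5l-KO list held no Oct4 peak there, and its nearest lay 95142 bp away. In the strongest of 10 strata of the wild-type Oct4 list, which holds this peak, 10.1% of peaks had no overlap in Taf5l-KO and 12.8% had none in Taf6l-KO. The Taf5l-KO Oct4 list was the longest of the 3, at 3034 peaks, from 7068955 unique tags against 8522959 in wild-type and 6628480 in Taf6l-KO. The weaker site, from 120107547 to 120107667 (121 bp, fold enrichment 4.92, rank 2454), was listed in neither knockout. It was little longer than the 109 bp fragment size of the wild-type Oct4 library. Over all wild-type Oct4 peaks, 40.9% had no overlap in Taf5l-KO and 53.5% in Taf6l-KO.

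The stronger Oct4 site was also where a tagged TAF protein was found. TAF6L-FB line 1 had a peak from 120129877 to 120130308, with its summit 73 bp from the wild-type Oct4 summit, and the peak spanned 100% of the wild-type Oct4 peak. It was weak within its list, with a fold enrichment of 3.32 at rank 1033 of 1140. TAF6L-FB line 2, both TAF5L-FB lines and BirA had none in the window, so the region rests on 1 of 2 TAF6L-FB lines. Of all wild-type Oct4 peaks, 10.0% overlapped a TAF6L-FB region of either line. In all 3 genotypes the site was part of an RNAP peak and of an RNAP-ser2 peak. RNAP overlapped 24.1% of all wild-type Oct4 peaks. An H3K4me3 peak reached into the Oct4 peak by 93 bp in wild-type, 62 bp in Taf5l-KO and 331 bp in Taf6l-KO, and 13.2% of wild-type Oct4 peaks overlapped H3K4me3. In the Taf5l-KO lists the place thus carried RNAP (120129844 to 120131163, fold enrichment 4.79) without a listed Oct4 peak.

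The Tbx3 counts depended on the peak threshold. At the authors' cutoffs, 14 of 23 wild-type peaks were overlapped in each knockout. A −log10 q of at least 5 was then required of wild-type and knockout peaks alike. This left 8 wild-type peaks, of which 2 were overlapped in Taf5l-KO and 6 in Taf6l-KO. Knockout peaks under the threshold were removed too, and no share over all peaks was computed at it, so these counts are not compared between knockouts. The TAF6L-FB peak, at −log10 q of 2.29, was not among the peaks left.

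At Zfp42, polymerase covered most of the window and stood near the top of its lists. The wild-type RNAP-ser2 peak ran for 20637 bp from 44369501 to 44390137, with a fold enrichment of 13.7 at rank 78 of 43039 and a width rank of 16. RNAP-ser5 had a peak of 15148 bp from 44367952 to 44383099 (12.1, rank 62 of 45366). RNAP had a peak of 17676 bp from 44369485 to 44387160 (9.96, rank 689 of 29370, width rank 9). From the lowest polymerase position to the high end of the strongest H3K4me3 peak, the wild-type span was 23.5 kb for RNAP, 25.1 kb for RNAP-ser5 and 23.5 kb for RNAP-ser2. The gene itself is 11943 bp long in RefSeq.

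These long polymerase peaks had counterparts in both knockouts. In Taf5l-KO, RNAP-ser2 ran for 21371 bp from 44368277 to 44389647 (fold enrichment 10.1, rank 80 of 31583), RNAP for 18358 bp (9.51, rank 1038 of 20583) and RNAP-ser5 for 13951 bp (10.9, rank 64 of 22190). In Taf6l-KO, RNAP-ser2 ran for 13672 bp from 44369389 to 44383060 (7.76, rank 953 of 42451) and RNAP for 14303 bp (8.54, rank 3291 of 26734). The strongest RNAP-ser5 peak of Taf6l-KO was 3938 bp wide (5.09, rank 3494 of 17000). The lists differ in length and depth, so these places are descriptions of each list and not changes.

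Covered length at Zfp42 is given per library, and the libraries differed in depth. RNAP covered 20.4 kb of the window in wild-type, 21.2 kb in Taf5l-KO and 18.4 kb in Taf6l-KO. The RNAP libraries held 5174150, 15865460 and 7236644 unique tags in the same order. The part of depth in the covered lengths was not tested. RNAP-ser2 covered 21.8, 20.4 and 17.6 kb in the same order. RNAP-ser5 covered 17.1, 15.7 and 5.87 kb, the lowest value coming from the shallow library described above. Every wild-type RNAP (3 of 3) and RNAP-ser2 (2 of 2) peak was overlapped in both knockouts, and 2 of 3 RNAP-ser5 peaks in each. In the strata of these RNAP peaks by fold enrichment, 3.81% to 39.0% of all wild-type peaks had no Taf5l-KO overlap and 1.70% to 28.3% no Taf6l-KO overlap. In those of the RNAP-ser2 peaks the shares were 27.8% to 46.3% and 24.2% to 43.0%, and in those of the RNAP-ser5 peaks 44.9% to 64.9% and 56.2% to 79.5%. All of these wild-type peaks except the RNAP-ser5 peak from 44387356 fell in the widest stratum of their lists by width. In that stratum, 12.3% of RNAP peaks had no Taf5l-KO overlap and 8.68% no Taf6l-KO overlap. The shares were 15.2% and 18.1% for RNAP-ser2, and 25.5% and 61.3% for RNAP-ser5. Nothing is read from the overlaps of these wide peaks. The RNAP-ser5 peak without overlap, from 44387356, was the same in both knockouts and had a fold enrichment of 3.88.

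**Figure D3:**
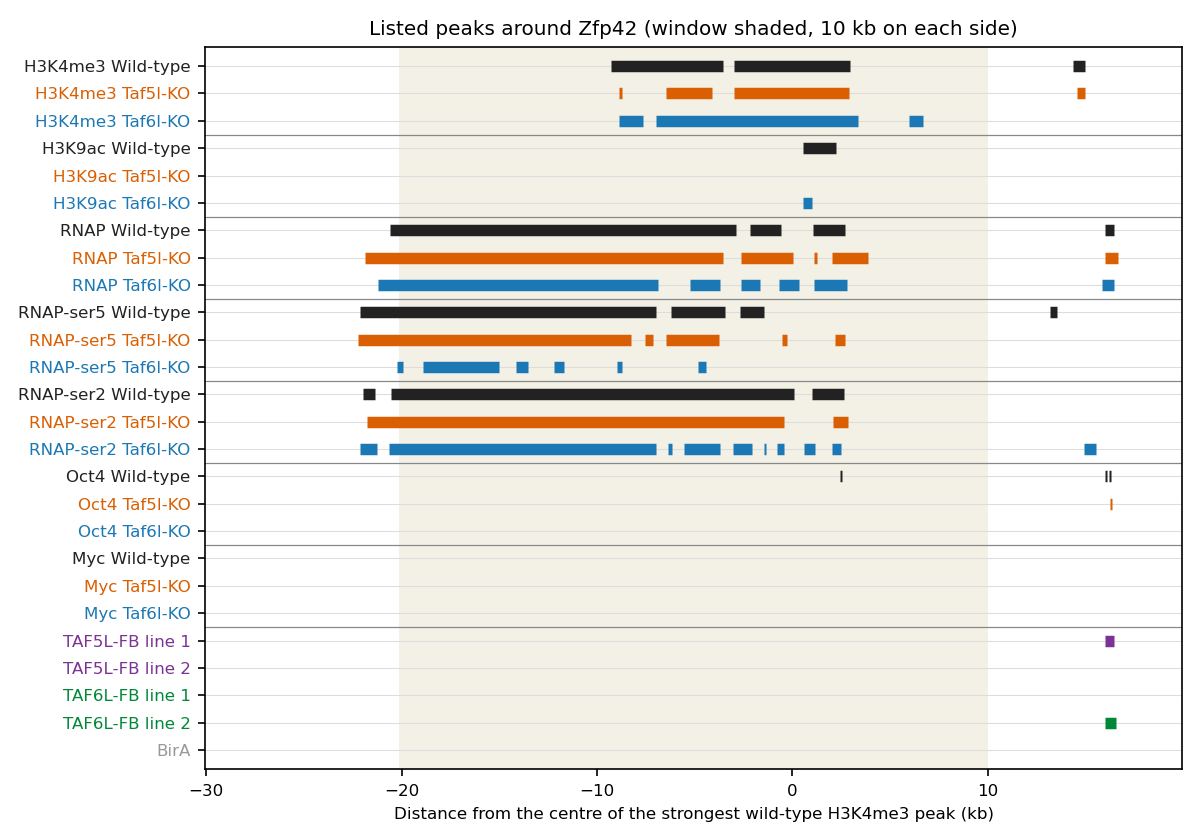
Map of listed peaks at Zfp42 in all 26 lists. The horizontal axis is the distance in kb from the centre of the strongest wild-type H3K4me3 peak, bars are peaks, rows are libraries, and the shaded span is the 30 kb window. Long polymerase bars lie in the left part of the window, except that RNAP-ser5 in Taf6l-KO is in 6 short pieces covering 5.87 kb, Oct4 has a bar inside the window in the wild-type row alone, and TAF5L-FB line 1 and TAF6L-FB line 2 have bars outside the window at the right.

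The strongest H3K4me3 peak at Zfp42 reached beyond the high end of the long polymerase peaks and, in wild-type cells, shared 3051 bp with that of RNAP-ser2 and 74 bp with that of RNAP. The strongest wild-type peak ran from 44387087 to 44393023 (5937 bp, fold enrichment 9.60, rank 5016 of 32370), and a weaker one from 44380791 began a stretch of 12233 bp with a gap of 571 bp. In Taf5l-KO the strongest peak had almost the same ends, from 44387076 to 44392957 (5882 bp, 8.47, rank 9889 of 32098). In Taf6l-KO the strongest of 3 peaks ran from 44383069 to 44393407 (10.7, rank 6056 of 29463). That width of 10339 bp was the second largest of the Taf6l-KO list, at width rank 2. Both wild-type peaks (2 of 2) were overlapped in each knockout, where 15.4% (Taf5l-KO) and 19.2% (Taf6l-KO) of all wild-type H3K4me3 peaks were not. In the widest of 10 strata by width, which holds both peaks, these shares were 0.46% and 1.02%. By fold enrichment, they were 0% in each knockout for the stratum of the stronger peak. For that of the weaker peak they were 28.5% and 37.6%, and nothing is read from the overlap. H3K4me3 covered 11.7 kb of the window in wild-type, 8.40 kb in Taf5l-KO and 12.3 kb in Taf6l-KO.

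H3K9ac at Zfp42 was listed in wild-type and Taf6l-KO cells and not in Taf5l-KO. The wild-type peak ran from 44390601 to 44392279 (1679 bp, fold enrichment 4.59, rank 2526 of 4131). The Taf6l-KO peak was shorter, from 44390618 to 44391060 (443 bp, 4.51, rank 841 of 898), and lay inside the wild-type peak, covering 26.4% of it. Of the wild-type H3K9ac peaks in the same stratum by fold enrichment, 100% had no overlap in Taf5l-KO and 93.0% had none in Taf6l-KO. In the widest stratum, which also holds this peak, the shares were 93.0% and 47.6%. The nearest Taf5l-KO peak was 43156981 bp away in a list of 110 peaks. All of the wild-type peak lay under H3K4me3 in each genotype. RNAP covered 69.7% of it in wild-type, 22.7% in Taf5l-KO and 67.4% in Taf6l-KO.

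Oct4 at Zfp42 was listed in wild-type cells at 1 site, from 44392502 to 44392614. The peak was 113 bp wide, little more than the 109 bp fragment size, with a fold enrichment of 7.46 at rank 1429 of 2564, and lay 409 bp inside the high end of the strongest H3K4me3 peak and 222 bp from the H3K9ac peak. Neither knockout list held it. The nearest Oct4 peak was 13690 bp away in Taf5l-KO and 1672022 bp away in Taf6l-KO. In the same stratum of the wild-type list, 51.0% of peaks had no overlap in Taf5l-KO and 64.2% had none in Taf6l-KO. H3K4me3 and RNAP covered 100% of the Oct4 peak in all 3 genotypes. RNAP-ser5 covered it in Taf5l-KO, in a peak from 44392248 to 44392732 (fold enrichment 4.60) that no wild-type RNAP-ser5 peak overlapped.

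**Figure D4:**
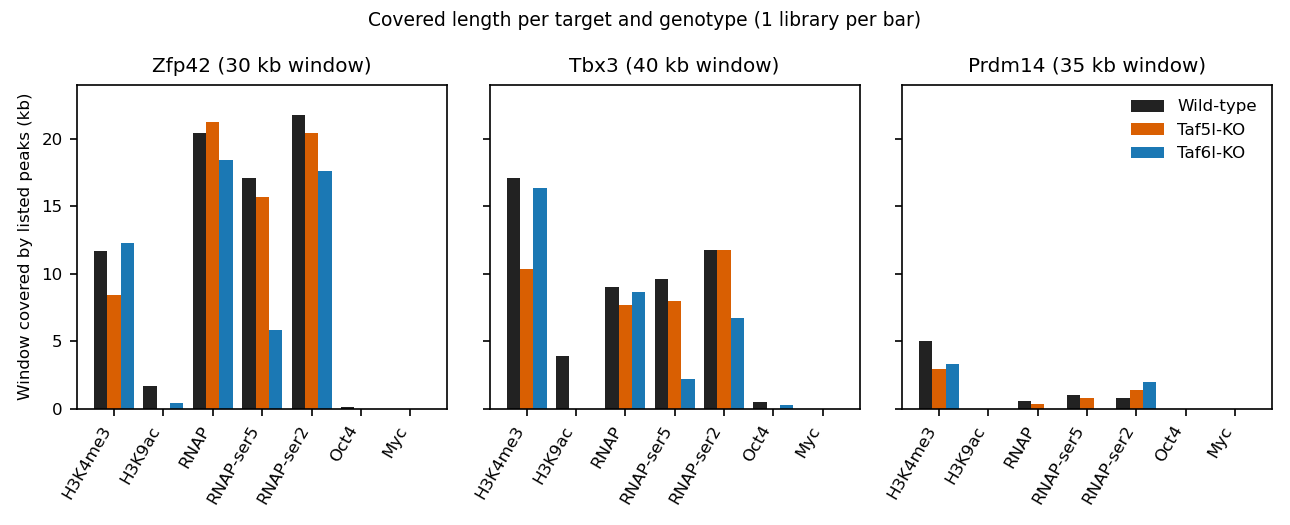
Length of each window covered by listed peaks, in kb, for 7 targets and 3 genotypes (wild-type first, then the Taf5l and Taf6l knockouts). Each bar is 1 library, so there are no error bars. RNAP-ser2 covers 21.8, 20.4 and 17.6 kb at Zfp42, H3K4me3 covers 17.1, 10.4 and 16.3 kb at Tbx3, and no target exceeds 5.01 kb at Prdm14.

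At Prdm14, the H3K4me3 peak was wide and low and little else was listed. The wild-type peak ran from 13113837 to 13118842. Its width of 5006 bp was at width rank 234 of 32370, while its fold enrichment of 4.82 was at rank 19417, above 40.0% of the list. The Taf5l-KO peak ran from 13114350 to 13117313 (2964 bp, 4.88, rank 22155 of 32098). The strongest Taf6l-KO peak ran from 13114517 to 13117349 (2833 bp, 4.57, rank 21197 of 29463), beside a second of 480 bp. The wild-type peak was thus overlapped in both knockouts, over 59.2% and 66.2% of its length. In its stratum by fold enrichment, 5.19% of all wild-type peaks had no Taf5l-KO overlap and 6.98% no Taf6l-KO overlap. No H3K9ac, Oct4, Myc, TAF5L-FB, TAF6L-FB or BirA peak was listed in the window in any genotype.

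Polymerase peaks at Prdm14 were short. A Taf5l-KO peak overlapped 0 of 1 wild-type RNAP peaks, 1 of 2 RNAP-ser5 peaks and 1 of 3 RNAP-ser2 peaks. For Taf6l-KO the counts were 0 of 1, 0 of 2 and 1 of 3. In the strata of these wild-type peaks by fold enrichment, 46.3% to 83.2% of peaks had no Taf5l-KO overlap. For Taf6l-KO the shares were 43.0% to 89.6%, so nothing is read from the counts. The wild-type RNAP peak ran from 13114647 to 13115186 inside the H3K4me3 peak (540 bp, fold enrichment 4.16, rank 16714 of 29370). In Taf5l-KO the strongest RNAP peak lay from 13117215 to 13117361 (147 bp, 4.72, rank 10495 of 20583), and Taf6l-KO had none. RNAP-ser5 had 2 peaks in wild-type, 2 in Taf5l-KO and 0 in Taf6l-KO. The strongest were from 13101857 to 13102508 in wild-type (3.59, rank 19763 of 45366) and from 13127040 to 13127183 in Taf5l-KO (4.38, rank 7194 of 22190).

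RNAP-ser2 had 3 peaks in wild-type, 1 in Taf5l-KO and 4 in Taf6l-KO in the Prdm14 window. The strongest were from 13105127 to 13105494 in wild-type (4.39, rank 8562 of 43039), from 13101228 to 13102641 in Taf5l-KO (3.86, rank 14086 of 31583) and from 13100514 to 13100646 in Taf6l-KO (3.59, rank 23551 of 42451). The wild-type peak from 13101986 to 13102137 was overlapped in both knockouts. Over the 7 targets, 3 of 7 wild-type peaks were overlapped in Taf5l-KO and 2 of 7 in Taf6l-KO. The 4 and 5 peaks without overlap stand beside shares of 54.2% and 55.5% over all wild-type peaks, so nothing is read from them. With −log10 q of at least 5, no peak of any of the 7 targets was left in this window in any genotype, so the Prdm14 counts rest on weak peaks.

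**Figure D5:**
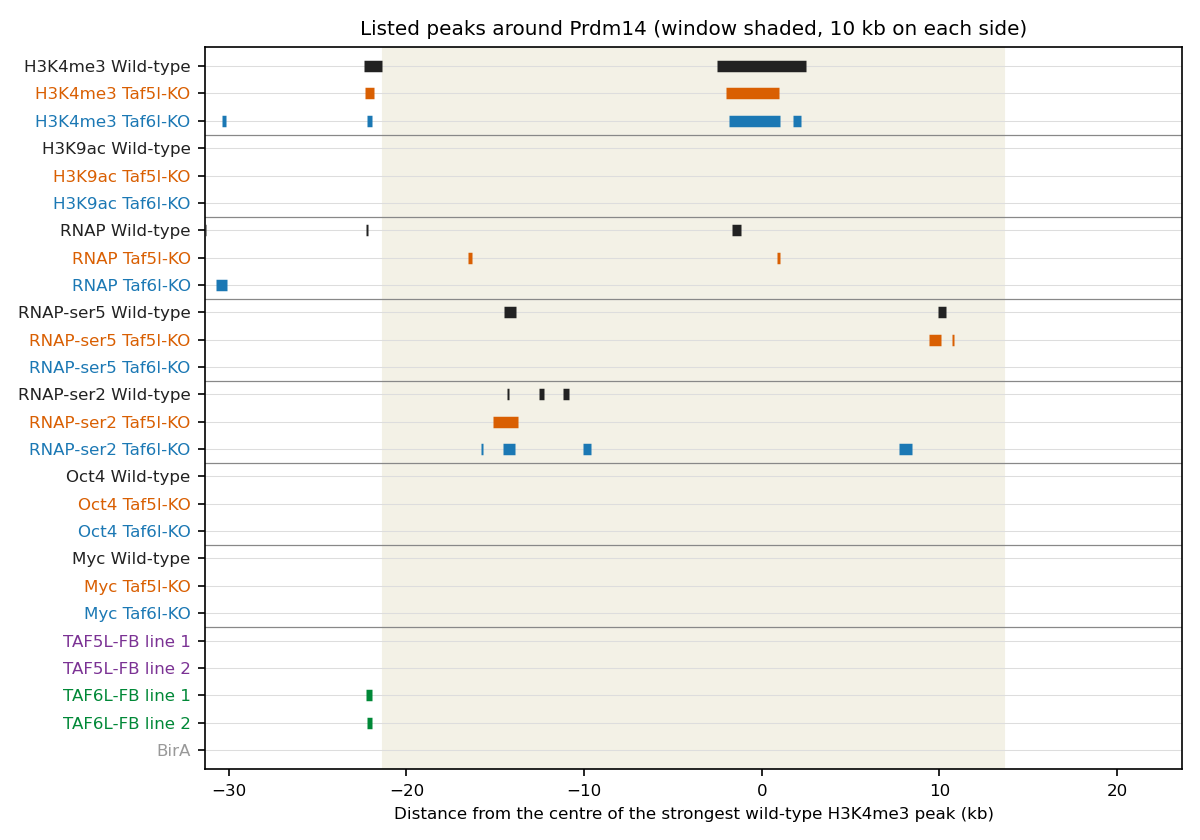
Map of listed peaks at Prdm14 in all 26 lists. The horizontal axis is the distance in kb from the centre of the strongest wild-type H3K4me3 peak, bars are peaks, rows are libraries, and the shaded span is the 35 kb window. H3K4me3 bars lie at the centre in all 3 genotypes, and both TAF6L-FB lines have bars just outside the left edge of the window.

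Myc had no peak in any window. The nearest wild-type Myc peak lay 9606 kb from the Zfp42 window, 889 kb from the Tbx3 window and 1145 kb from the Prdm14 window, in a list of 538 peaks. Over the wild-type list, 96.1% of Myc peaks had no Taf5l-KO overlap and 98.3% had no Taf6l-KO overlap. Of all wild-type H3K4me3 peaks 1.28% overlapped Myc, and 12.2% overlapped H3K9ac.

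Peaks of the knockouts that no wild-type peak of the same target overlapped numbered 21 in the 3 windows. At Zfp42 there were 2 in Taf5l-KO and 1 in Taf6l-KO, at Tbx3 5 and 7, and at Prdm14 3 and 3. In the windows they made up 10 of 42 peaks (23.8%) in Taf5l-KO and 11 of 53 (20.8%) in Taf6l-KO. Over all peaks of the 7 targets, 34.8% of Taf5l-KO peaks and 38.7% of Taf6l-KO peaks had no overlapping wild-type peak. The 21 were all H3K4me3 or polymerase peaks, with fold enrichments from 3.14 to 4.72. Of the 21, 1 overlapped a peak of the other knockout, an RNAP-ser2 peak at Tbx3 from 120128364 to 120128662. No Oct4 or H3K9ac peak in a window was among them.

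Some peaks lay just outside the windows and are not counted above. Within 10000 bp of the edges there were 14 at Zfp42, 9 at Prdm14 and none at Tbx3. On chromosome 8, 6037 bp beyond the Zfp42 window, TAF5L-FB line 1 had a peak from 44406038 to 44406516, with a fold enrichment of 5.32 at rank 5 of 136. TAF6L-FB line 2 had a peak there from 44406049 to 44406639 (4.32, rank 327 of 628). Oct4 had a pair of wild-type peaks at this place (fold enrichments 5.97 and 6.55) and 1 Taf5l-KO peak (7.62), and RNAP was listed in all 3 genotypes. On chromosome 1, both TAF6L-FB lines had a peak 600 and 583 bp before the Prdm14 window, from 13094065 to 13094399 in line 1 (4.43, rank 417 of 1140) and from 13094091 to 13094416 in line 2 (5.86, rank 46 of 628). H3K4me3 was listed there in all 3 genotypes, with fold enrichments of 4.20 in wild-type, 3.30 in Taf5l-KO and 3.33 in Taf6l-KO. An Oct4 peak lay 19.7 to 19.8 kb before this window in wild-type (10.5, rank 591 of 2564), Taf5l-KO (7.21, rank 1862 of 3034) and Taf6l-KO (4.27, rank 2015 of 2049).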

How the data were processed

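The submitters' processing notes name mm9, Bowtie2 2.3.2 and deepTools 2.5.3. Each list was made by MACS2 2.1.1.20160309 from 1 library against 1 input, keeping 1 tag per position, per the file headers. The histone marks and the polymerase forms were called in broad mode (second cutoff 0.1), the others in narrow mode, and the 4 TAF lists with a set fragment size of 300 bp, per the file headers. Per list the authors deposited each peak's pileup (a signal), fold enrichment (a ratio), −log10 p, −log10 q and width. How a broad peak's values are summarised is not given in the sources used here.

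Groups came from the sample titles, and the lines of a tagged protein were numbered in listed order. Only chromosomes 1 to 19, X and Y entered. Python 3.11.15 with pandas 2.3.3 was used to rank peaks within each list (rank 1 is the highest) and to find overlaps of at least 1 bp. Overlap steps were checked on simulated intervals. Background shares are over all wild-type peaks of a list, and over 10 strata of it by fold enrichment or width. No test between genotypes and no p-value was made. In each window and list the strongest peak is named, and every Oct4, H3K9ac and TAF peak. The genes, windows and lists were chosen with earlier results of these data known.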

Additional observations from a re-analysis of the deposited data

How the results depend on the processing

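At the authors' cutoffs, a Taf5l-KO peak overlapped 9 of 12 wild-type peaks at Zfp42, 14 of 23 at Tbx3 and 3 of 7 at Prdm14. For Taf6l-KO the counts were 10, 14 and 2 of the same. Of 96 recomputed counts, 77 stayed within 1.5 times the main count. Raw counts were compared although their totals change with the setting, and some were 0 before and after, so the 77 does not measure stability. A −log10 q of at least 5 was required of wild-type and knockout peaks alike. A Taf5l-KO peak then overlapped 5 of 6 wild-type peaks at Zfp42, 2 of 8 at Tbx3 and 0 of 0 at Prdm14. For Taf6l-KO the counts were 4, 6 and 0 of the same. At that threshold the targets with a peak in Taf6l-KO numbered 3 at Zfp42, those at Prdm14 were 0 in all 3 genotypes, and the TAF6L-FB regions at Tbx3 went from 1 to 0. With 50% of the wild-type peak covered, Taf6l-KO kept 5 of 12 at Zfp42. With peaks under 1000 bp apart merged, Taf5l-KO kept 5 of 7 and Taf6l-KO 6 of 7 at Zfp42. With windows widened by 10000 bp, Zfp42 held 1 TAF5L-FB and 1 TAF6L-FB region, Prdm14 held 1 TAF6L-FB region, and Taf6l-KO overlapped 4 of 10 wild-type peaks at Prdm14. Without either TAF6L-FB line in turn, the regions at Tbx3 ranged from 0 (without line 1) to 1. Leaving out RNAP-ser5, chosen after the data were seen, kept all 15 counts within 1.5 times. Dropping 1 target lowers a count of targets by at most 1, so the counts of targets could hardly move. The rest are counts of overlapped peaks, which can fall only by the RNAP-ser5 peaks among them. At Zfp42 the Taf5l-KO count went from 9 to 7. Nothing is read from this setting. Of 80 ranks recomputed by −log10 q or pileup, 58 stayed within 1.5 times and 22 did not, 21 of these by pileup. No paired analysis was possible because there is 1 library per target and genotype.

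The RNAP-ser5 library of Taf6l-KO held the fewest unique tags (1702363), and the part of depth in its list was not tested. Lists of 110 H3K9ac peaks in Taf5l-KO and 23 to 34 Myc peaks in the knockouts cannot show that a site was unbound. The windows are fixed, and TAF-FB peaks lay just outside those of Zfp42 and Prdm14. The genotype differences have no replicate check.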
